A study of Mus musculus with 24 samples.

Results

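MiR-146a and miR-146b are sister microRNAs made from separate genes. They were followed across 3 mouse mammary carcinoma lines, and their probes were those named exactly mmu-miR-146a and mmu-miR-146b on the array. They are 2 of 558 mouse miRNA probes, and both were among the 365 probes that were detected often enough to be tested. The lines were 4T1, which the labels call highly metastatic, 4TO7, called systemically invasive, and 67NR, called nonmetastatic. All had grown for 6 days as 3D organotypic cultures in a rigid or a compliant microenvironment, and either received TGF-beta or had its type I receptor inhibited, a state named basal in the labels and called inhibitor here. The 12 groups were thus, for each line, rigid with TGF-beta, rigid with inhibitor, compliant with TGF-beta and compliant with inhibitor. No group went without both agents, so what TGF-beta did and what blocking its receptor did cannot be told apart. Each kind of metastatic behaviour was represented by 1 line, so behaviour and line cannot be told apart either. Each group had 2 arrays, set 1 and set 2. Since the labels do not call the sets separate cultures, the p-values cover only how far these arrays spread, which may be technical.

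MiR-146 is a textbook feedback regulator of inflammatory signalling. Its transcription is induced by NF-kappa-B downstream of Toll-like and interleukin-1 receptors, and it represses Irak1 and Traf6, which carry the signal from those receptors. Loss of miR-146a in mice leads to excess myeloid growth and inflammation, and in breast carcinoma cells miR-146 has been studied as a brake on NF-kappa-B activity, motility and metastasis.

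The mature sequences show why both are treated as 1 family. The seed, bases 2 to 8, which sets the targets of a miRNA, is in capitals below. MiR-146b* is the opposite arm of the miR-146b hairpin. The sequences are from RefSeq on GRCm38.p6, matched to the 3 probes by name, with the unstarred names taken as the 5p arms. The array's own probe sequences were not used here.
miR-146a: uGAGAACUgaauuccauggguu
miR-146b: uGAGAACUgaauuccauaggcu
miR-146b*: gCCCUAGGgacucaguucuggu
MiR-146a lies at chr11:43374435-43374456 on the minus strand in the gene Mir146. MiR-146b lies at chr19:46342790-46342811 on the plus strand in Mir146b, and miR-146b* at chr19:46342828-46342849 on that strand. The seed GAGAACU occurred in 2 of the 1679 mature names of the RefSeq table, which were these 2.

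The mature forms were identical at 20 of 22 bases and differed near the 3′ end, by G18A and U21C, with miR-146a's base first and positions counted from the 5′ end. The capitals below mark those positions.
miR-146a: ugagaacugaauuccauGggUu
miR-146b: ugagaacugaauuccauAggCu
Whether the 2 probes bind each other's target was not tested. The hairpins, with both mature arms in capitals, show how the arms are placed. The Mir146 hairpin lies at chr11:43374397-43374461, and the Mir146b hairpin, 109 bases long, at chr19:46342762-46342870.
Mir146: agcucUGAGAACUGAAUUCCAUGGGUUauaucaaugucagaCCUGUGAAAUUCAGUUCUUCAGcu
Mir146b: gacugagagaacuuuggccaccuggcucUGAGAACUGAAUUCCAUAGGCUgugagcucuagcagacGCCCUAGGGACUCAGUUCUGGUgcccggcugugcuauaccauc
Mir146 lies within the span of no other annotated gene, between Atp10b and Pttg1. Mir146b lies within the span of the long noncoding RNA gene Gm36493, between the coding genes Cuedc2 and Mfsd13a. Beyond Cuedc2 come Fbxl15, Psd and then Nfkb2, which encodes an NF-kappa-B subunit.

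The deposited value of a probe is a relative intensity, the signal of the sample over that of a synthetic reference, with a detection p for signal above background. Levels below are log2 relative intensity after quantile normalization, and a probe counted as detected at a detection p under 0.05. Between 313 and 357 mouse miRNA probes were detected per array, and the 24 arrays lay on 5 slides. The labelled cell type was checked with 6 epithelial miRNAs, the miR-200 family and miR-205. In 4T1, 5 of the 6 were detected on all arrays. In 4TO7 and in 67NR only miR-141 was, so most of these markers were not detected throughout those lines. Of 6 haematopoietic markers, which matter because blood cells are rich in miR-146a, miR-142-3p, miR-142-5p, miR-223, miR-150 and miR-144 were detected on no array, and miR-451 on all 24. Neither of 2 endothelial markers was detected on any array. Of 4 fibroblast and smooth muscle markers on the array, 3 were detected in 4T1 and in 4TO7, and 4 in 67NR. In these bulk cultures, fewer cells of a type and less RNA per cell cannot be told apart.

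Both miRNAs were detected throughout 4T1, on some 4TO7 arrays, and on no 67NR array. MiR-146a was detected on 8 of 8 arrays of 4T1, on 2 of 8 arrays of 4TO7 and on 0 of 8 arrays of 67NR. MiR-146b was detected on 8 arrays of 4T1, 4 of 4TO7 and 0 of 67NR. The deposited relative intensity of miR-146a ran from 70.4 to 813 over the 24 arrays, and that of miR-146b from 51.7 to 338. The highest values of both were on the 4T1 arrays of compliant cultures with TGF-beta. The deposited percent error of a value was 4.34 to 12.3 for miR-146a and 3.78 to 12.6 for miR-146b.

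**Figure D1:**
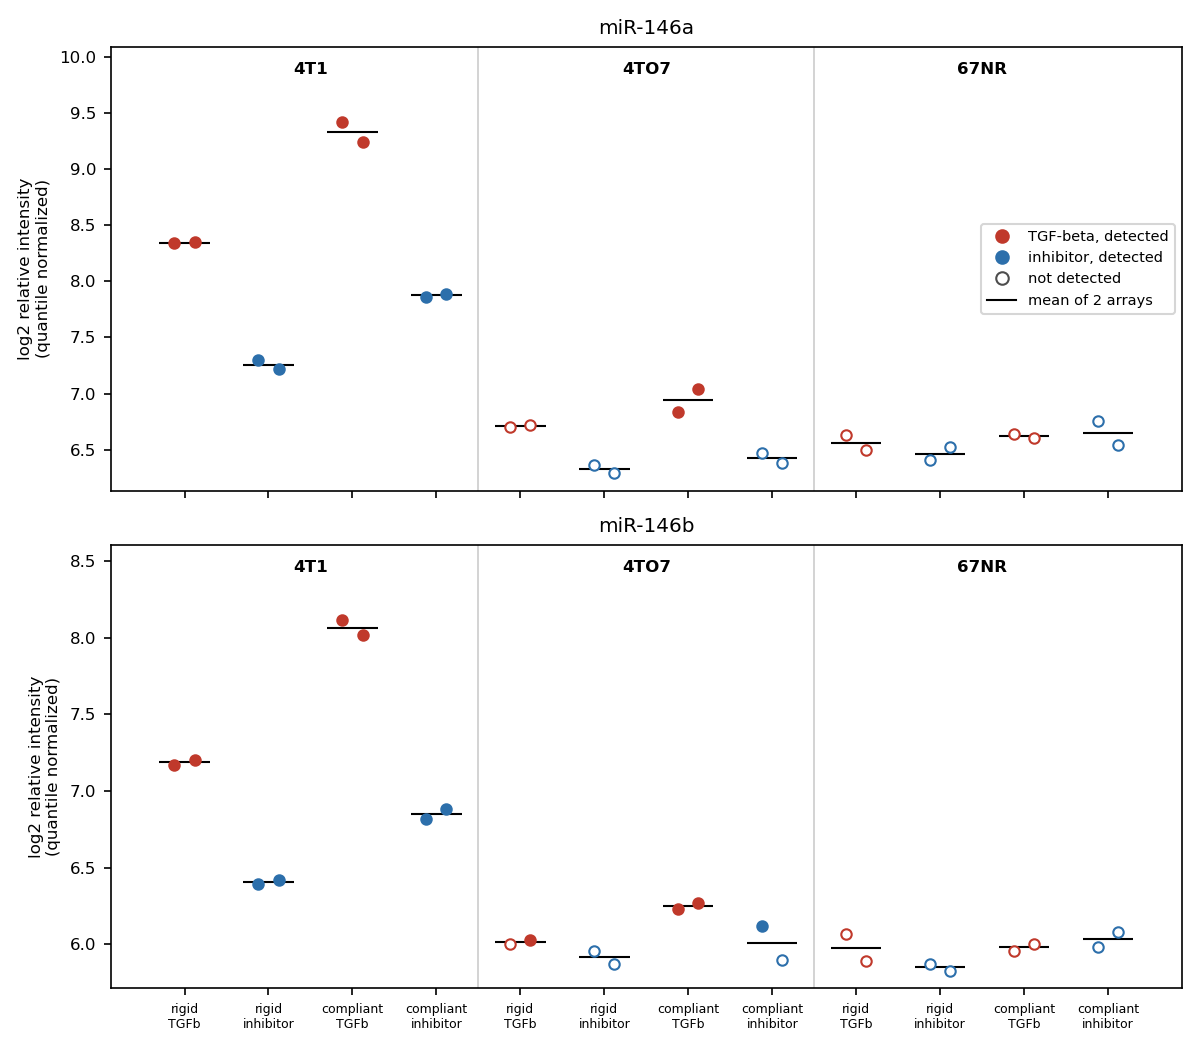
Normalized log2 relative intensity of miR-146a (top) and miR-146b (bottom) on each of the 24 arrays, by line, microenvironment and treatment, where filled points are detected arrays, open points undetected ones, and lines the means of 2 arrays. The 4T1 groups of both members stand apart, up to 9.42 for miR-146a, while all 67NR points are open.

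In 4T1, TGF-beta against the inhibitor gave the largest rise of any tested probe to miR-146a. In rigid 4T1 cultures miR-146a was at 8.34 and 8.35 with TGF-beta, against 7.30 and 7.22 with the inhibitor. In compliant 4T1 cultures it was at 9.42 and 9.24 with TGF-beta, against 7.86 and 7.89 with the inhibitor. Overlap of arrays is given only as a description, here and below, without the share of all tested probes that separate. Separation of 2 arrays from 2 is no support for a change. The arrays of miR-146b* also separated in compliant 4T1 cultures, at a difference of 0.15 that did not pass (limma, adjusted p = 0.15). The miR-146a groups did not overlap in either microenvironment, nor when both were pooled. Averaged over both, miR-146a rose by 1.27 ± 0.06 on the log2 scale (SE, 4 arrays against 4), a 2.41-fold change with a 95% interval of 1.15 to 1.39 on the log2 scale (limma, adjusted p = 3.4e-11). In this comparison 31.8% of the tested probes passed in either direction and 12.6% rose. MiR-146a was the first of 365 by size of change.

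MiR-146b moved the same way. In rigid 4T1 cultures it was at 7.17 and 7.20 with TGF-beta, against 6.40 and 6.42 with the inhibitor. In compliant 4T1 cultures it was at 8.11 and 8.02 with TGF-beta, against 6.82 and 6.88 with the inhibitor. Again the groups did not overlap. The rise was 0.998 ± 0.05 on the log2 scale (limma, adjusted p = 1.0e-10), which placed miR-146b at rank 3 among the rises. The median probe shifted by 0.02.

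Each microenvironment gave the rise on its own. In rigid 4T1 cultures miR-146a rose by 1.09 ± 0.08 and miR-146b by 0.78 ± 0.07 (limma, adjusted p = 4.1e-08 and 4.3e-07), where 18.4% of probes passed. In compliant 4T1 cultures miR-146a rose by 1.45 ± 0.08 and miR-146b by 1.22 ± 0.07 (limma, adjusted p = 1.7e-09 for both), where 17.8% of probes passed. No slide held TGF-beta and inhibitor arrays of 4T1 in the same microenvironment. Both compliant TGF-beta arrays of 4T1, and set 1 of the rigid TGF-beta group, lay on slide 3, which held no 4T1 inhibitor array. The spread of that compliant group is thus within 1 slide. With slide as a block in the fit, the rises over both microenvironments were 1.25 for miR-146a and 1.04 for miR-146b, and both passed.

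**Figure D2:**
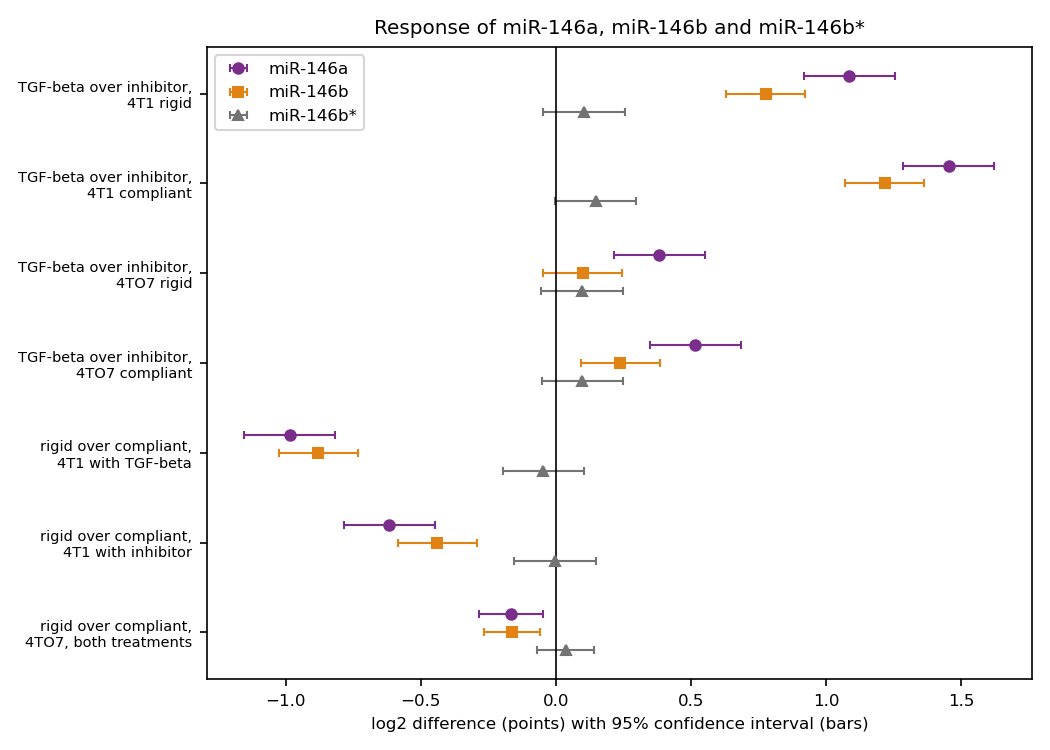
Log2 differences (points) with 95% confidence intervals (bars) for TGF-beta over inhibitor in rigid and compliant 4T1 and 4TO7 cultures, and for rigid over compliant, for miR-146a, miR-146b and miR-146b*, the opposite arm. In rigid 4T1 the members lie at 1.09 and 0.78, and for rigid over compliant with TGF-beta at -0.98 and -0.88, while the miR-146a point for rigid 4TO7 is a difference of undetected signals.

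The second comparison asked what a rigid microenvironment changes, and in 4T1 both miRNAs were lower in the rigid one. With TGF-beta, miR-146a was at 8.34 and 8.35 in rigid cultures, against 9.42 and 9.24 in compliant ones. With the inhibitor, it was at 7.30 and 7.22 in rigid cultures, against 7.86 and 7.89 in compliant ones. Within each treatment the rigid arrays all lay below the compliant ones. Averaged over treatments, miR-146a fell by 0.80 ± 0.06 on the log2 scale, to 0.574 of its compliant level (limma, adjusted p = 5.7e-08). Rigid against compliant changed few probes in 4T1, as 7.4% of those tested passed and 3.84% fell.

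MiR-146b fell by 0.66 ± 0.05, to 0.633 of its compliant level (limma, adjusted p = 7.9e-08). With TGF-beta it was at 7.17 and 7.20 in rigid cultures, against 8.11 and 8.02 in compliant ones. With the inhibitor it was at 6.40 and 6.42 in rigid cultures, against 6.82 and 6.88 in compliant ones. As for miR-146a, no rigid array of a treatment reached a compliant one. By size of the difference between rigid and compliant, miR-146a was the first and miR-146b the second of the 365 probes.

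The fall was present under both treatments. With TGF-beta, where 4.38% of probes passed, miR-146a fell by 0.98 ± 0.08 and miR-146b by 0.88 ± 0.07 (limma, adjusted p = 2.7e-07 for both). With the inhibitor, where 3.84% passed, miR-146a fell by 0.62 ± 0.08 and miR-146b by 0.44 ± 0.07 (limma, adjusted p = 2.0e-04 and 9.4e-04). These were the largest falls in each comparison. Within single slides, miR-146a differed by -1.08 and -0.90 with TGF-beta and by -0.64 with the inhibitor. MiR-146b differed on the same slides by -0.94 and -0.85 with TGF-beta and by -0.39 with the inhibitor. For each miRNA, both TGF-beta values are from slide 3 and share its rigid 4T1 array.

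**Figure D3:**
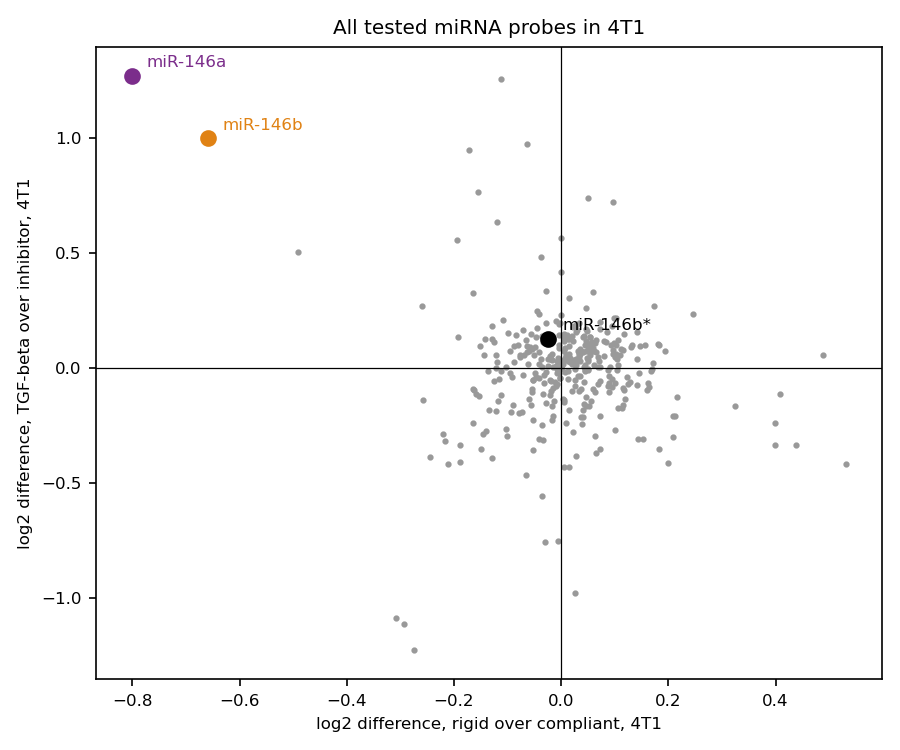
Each of the 365 tested probes in 4T1, with the rigid minus compliant difference on the x axis and the TGF-beta minus inhibitor difference on the y axis, both in log2. MiR-146a, at -0.80 and 1.27, and miR-146b, at -0.66 and 0.998, are apart from the other probes at the upper left, while miR-146b* lies in the main cloud.

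The size of the TGF-beta rise in 4T1 was set against the microenvironment as a difference of effects. MiR-146b in rigid cultures with the inhibitor was detected, but at 6.40 and 6.42 it lay near undetected 67NR signals of up to 6.08. Whether this affected its changes was not tested. The rise in rigid cultures minus that in compliant ones was -0.37 ± 0.11 for miR-146a, with a 95% interval of -0.61 to -0.13 (limma, unadjusted p = 0.0049, adjusted p = 0.23). For miR-146b it was -0.44 ± 0.10, with an interval of -0.65 to -0.23 (limma, unadjusted p = 3.8e-04, adjusted p = 0.14). Neither passed. No probe did in this comparison with limma, 0% of 365, while 29 had an unadjusted p under 0.05. The other settings called 0 probes, except that scaling by the median of all mouse probes called 3. Both members passed there, at -0.43 and -0.48 (limma, adjusted p = 0.036 and 0.025). MiR-146b passed too with either 4TO7 compliant inhibitor array left out, with the value still at -0.44.

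In 4TO7, miR-146a rose with TGF-beta, close to the detection limit. In rigid 4TO7 cultures it was at 6.70 and 6.72 with TGF-beta, against 6.36 and 6.29 with the inhibitor, and it was not detected on any of these 4 arrays. In compliant 4TO7 cultures it was at 6.84 and 7.04 with TGF-beta, both detected, against 6.47 and 6.38 with the inhibitor, neither detected. The groups did not overlap. Against an undetected group a fold is a bound, taken from the higher, on each array, of the probe's own signal and the lowest signal of any detected probe. Over both microenvironments, the miR-146a signal was higher with TGF-beta by a fitted 0.45 ± 0.06 (limma, adjusted p = 1.3e-05). The rigid arrays in it were undetected on both sides, so it gives no bound. In 4TO7 21.4% of the probes passed and 9.59% rose. In compliant cultures alone miR-146a was at least 1.43-fold higher (limma, adjusted p = 2.6e-04), where 15.1% passed. In rigid cultures, where both sides were undetected, no fold is given. On single slides the difference of the signals was 0.66 in compliant cultures, and 0.36 and 0.43 in rigid ones. Both rigid values are from slide 4 and share its rigid 4TO7 array with TGF-beta.

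The miR-146b call in 4TO7 rests on single arrays. In rigid 4TO7 cultures it was at 6.00 and 6.03 with TGF-beta, against 5.96 and 5.87 with the inhibitor, with 1 of the 4 arrays detected. In compliant 4TO7 cultures it was at 6.23 and 6.27 with TGF-beta, against 6.12 and 5.90 with the inhibitor, with 3 of the 4 arrays detected. Pooled over microenvironments, the groups overlapped. The difference was 0.17 ± 0.05 (limma, adjusted p = 0.019). The call was lost without set 2 of the compliant inhibitor group (0.11, adjusted p = 0.10), of the rigid inhibitor group (0.15, 0.086), of the compliant TGF-beta group (0.16, 0.063) or of the rigid TGF-beta group (0.16, 0.054). In compliant cultures alone it was 0.24 ± 0.07 (limma, adjusted p = 0.027), and that call was lost without set 2 of the inhibitor group (0.13, adjusted p = 0.40) and without either TGF-beta array (0.26 and 0.22, adjusted p = 0.066 and 0.15). In rigid cultures, where 13.2% of probes passed, it was 0.10 ± 0.07 (limma, adjusted p = 0.41).

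The rigid microenvironment gave no call in 4TO7. The difference from compliant cultures was -0.17 ± 0.06 for miR-146a (limma, adjusted p = 0.13), with 0 of 4 rigid and 2 of 4 compliant arrays detected, and -0.16 ± 0.05 for miR-146b (limma, adjusted p = 0.086). In this comparison 2.74% of the probes passed. Both members passed when arrays were scaled by the median of the probes detected on all arrays, at -0.19 and -0.18 (limma, adjusted p = 0.049 for both). MiR-146a passed without set 1 of the compliant TGF-beta group (-0.22), and miR-146b without set 2 of the compliant inhibitor group (-0.22). On the 1 slide that held both microenvironments of 4TO7 under TGF-beta, the differences were -0.12 for miR-146a and -0.20 for miR-146b. For miR-146b the TGF-beta effect in rigid minus that in compliant cultures was -0.14 ± 0.10 (limma, adjusted p = 0.97), and for miR-146a, undetected in rigid 4TO7, it is not given. There, 0% of the probes passed with limma, and 8 had an unadjusted p under 0.05.

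In 67NR neither member was detected on any of the 8 arrays, at detection p of 0.105 to 0.210 for miR-146a and 0.061 to 0.179 for miR-146b. The signal of miR-146a ran from 6.50 to 6.64 with TGF-beta, against 6.41 to 6.76 with the inhibitor. That of miR-146b ran from 5.89 to 6.07 with TGF-beta, against 5.83 to 6.08 with the inhibitor. The groups overlapped for both, and no fold is given. TGF-beta against inhibitor in 67NR called 11% of the probes, and neither member was among them.

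Set between lines, the fitted TGF-beta effect in 4T1 minus that in 4TO7 was 0.82 ± 0.08 for miR-146a and 0.83 ± 0.07 for miR-146b (limma, adjusted p = 2.4e-06 and 5.5e-07). In this test 11.2% of the probes passed. MiR-146a was undetected in 4TO7 with the inhibitor, and in rigid 4TO7 cultures with TGF-beta too. Its 0.82 is thus a difference of signals and not a limit of the excess in 4T1. MiR-146b was detected on 1 of the 4 inhibitor arrays of 4TO7. The effect of the rigid microenvironment was set between these lines too, in a comparison added after the values were seen. The fitted effect in 4T1 minus that in 4TO7 was -0.63 ± 0.08 for miR-146a and -0.50 ± 0.07 for miR-146b (limma, adjusted p = 9.2e-05 and 2.5e-04), where 1.64% of the probes passed. In rigid 4TO7 cultures miR-146a was detected on 0 of 4 arrays and miR-146b on 1 of 4, so a larger fall in 4TO7 could not have been seen, and these are differences of signals rather than of measured levels.

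The lines themselves differed in both members. MiR-146a was at a median of 8.11 in 4T1 (7.22 to 9.42), against 6.57 in 67NR (6.41 to 6.76). MiR-146b was at a median of 7.03 in 4T1 (6.40 to 8.11), against 5.97 in 67NR (5.83 to 6.08). The lowest 4T1 array of each member lay above the highest 67NR array. Averaged over the 4 culture conditions, miR-146a was at least 3.09-fold and miR-146b at least 2.21-fold higher in 4T1 than in 67NR (limma, adjusted p = 9.5e-16 and 1.1e-14). Most probes differed between these lines, with 89.6% passing and a median of -0.22. On single slides with both lines in 1 culture condition, the difference was 1.13, 2.82 and 2.64 for miR-146a and 0.90, 2.11 and 2.01 for miR-146b. The larger values of each are from slide 3 and share its 67NR compliant TGF-beta array.

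Against 4TO7, 4T1 was higher by 1.60 ± 0.04 for miR-146a (3.03-fold) and by 1.08 ± 0.03 for miR-146b (2.11-fold), where 63% of the probes passed (limma, adjusted p = 3.0e-15 and 1.1e-13). In 4TO7 miR-146a was detected on 2 of the 8 arrays and miR-146b on 4, so these folds are against signals that are partly background. The 8 arrays of miR-146a in 4TO7 ran from 6.29 to 7.04, all below those in 4T1, and those of miR-146b from 5.87 to 6.27. With TGF-beta, where 44.1% passed, the differences were 2.01 ± 0.06 and 1.49 ± 0.05 (limma, adjusted p = 2.4e-14 and 1.9e-13). With the inhibitor, where 54.8% passed, miR-146a was at least 2.28-fold higher (limma, adjusted p = 3.6e-11) and miR-146b was higher by 0.66 ± 0.05 (limma, adjusted p = 1.3e-08). On single slides 4T1 exceeded 4TO7 by 1.48 and 1.65 for miR-146a and by 0.92 and 1.20 for miR-146b.

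Between 4TO7 and 67NR the members were near the detection limit on both sides, and the arrays overlapped. MiR-146a differed by 0.03 ± 0.04 (limma, adjusted p = 0.53). MiR-146b differed by 0.09 ± 0.03 (limma, adjusted p = 0.026). It was detected on 4 of 8 4TO7 arrays and 0 of 8 67NR arrays, so this is a difference of signals. In this comparison 86.8% of the probes passed. The miR-146b difference did not pass under scaling by the median of all mouse probes (0.02, adjusted p = 0.56), and leaving out any 1 of 7 arrays ended the call, with values of 0.060 to 0.082. These arrays were 4TO7 compliant TGF-beta set 2, compliant inhibitor set 1 and rigid inhibitor set 1, and 67NR compliant TGF-beta set 1, compliant inhibitor set 1, rigid TGF-beta set 2 and rigid inhibitor set 2. On single slides the miR-146a difference ran from -0.12 to 0.22, and that of miR-146b was at most 0.14.

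In the order of the 12 group means, both members ran the same way at the top, from 4T1 compliant with TGF-beta through 4T1 rigid with TGF-beta, 4T1 compliant with inhibitor and 4T1 rigid with inhibitor to 4TO7 compliant with TGF-beta. No 2 neighbours among these groups overlapped. Below them the neighbours mostly did. For miR-146a the arrays of neighbouring groups overlapped from the sixth to the eleventh place, with only 4TO7 rigid with inhibitor, the lowest group, apart. For miR-146b they overlapped from the sixth to the twelfth place, which was 67NR rigid with inhibitor.

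The levels of the 2 probes cannot be set against each other, but the difference of their log2 values within an array can be compared between arrays. In 4T1 it was 1.21 ± 0.07 with TGF-beta (1.15 to 1.30), against 0.94 ± 0.11 with the inhibitor (0.80 to 1.04, SD, n = 4 each). In 4TO7 it was 0.69 ± 0.07 with TGF-beta (0.61 to 0.77), against 0.41 ± 0.05 with the inhibitor (0.35 to 0.48, SD, n = 4 each). The groups did not overlap in either line. The changes of 0.27 and 0.28 each had an exact two-sided permutation p of 0.029, the smallest that 70 regroupings allow, and the same after adjustment over the 2 tests. These regroupings ignore set and microenvironment. In 4T1 the change was positive in 4 of 4 pairs of arrays of the same set and microenvironment, at 0.22 to 0.35, and flipping signs within the pairs, added after the values were seen, gave an exact p of 0.125, the smallest that 4 pairs allow. Without set 1 of the 4T1 compliant TGF-beta group the 4T1 change was 0.24 (exact permutation p = 0.057). In 4TO7 miR-146a was undetected on 6 of the 8 arrays, so its signal there is partly background. In rigid 4T1 with the inhibitor miR-146b was detected, but at 6.40 and 6.42, near undetected 67NR signals of up to 6.08. In 67NR, where neither was detected, the difference ran from 0.46 to 0.77 with a median of 0.60.

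**Figure D4:**
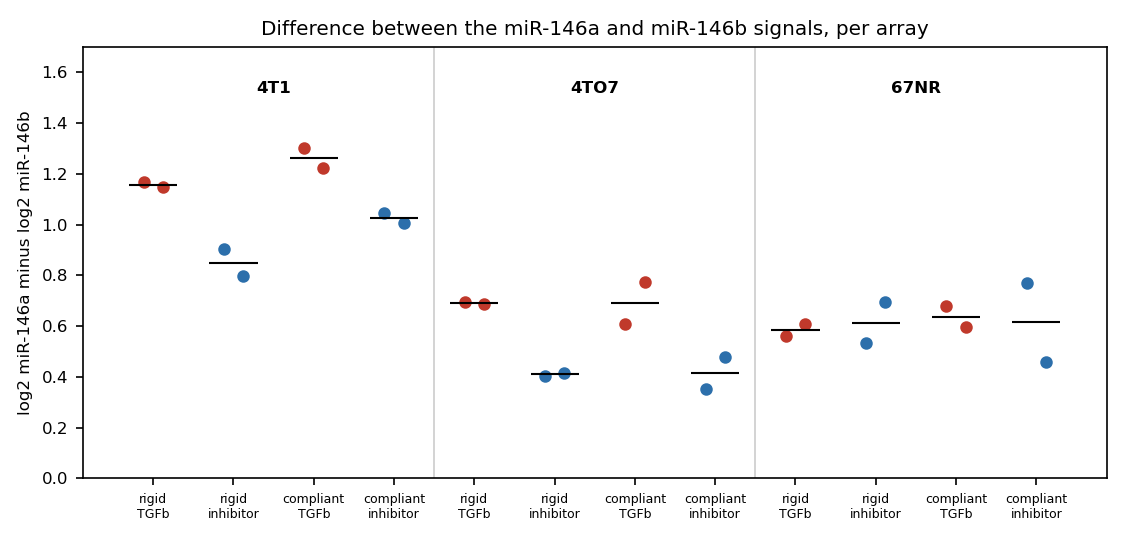
Within-array difference of the normalized log2 values, miR-146a minus miR-146b, by line, microenvironment and treatment (red, TGF-beta; blue, inhibitor), with lines at the means of 2 arrays. In 4T1 the arrays with TGF-beta lie between 1.15 and 1.30, above those with the inhibitor at 0.80 to 1.04.

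MiR-146b* is the 3p arm of the hairpin that gives miR-146b, and the probe of that name did not share the pattern. It was detected on all 24 arrays, at 7.49 to 7.77 in 4T1, 7.62 to 7.79 in 4TO7 and 7.84 to 8.24 in 67NR. TGF-beta against inhibitor differed by 0.13 ± 0.05 in 4T1, by 0.10 ± 0.05 in 4TO7 and by 0.15 ± 0.05 in 67NR (limma, adjusted p = 0.066, 0.20 and 0.059), so it passed in no line. In the authors' deposited value table, fitted the same way, it passed in all 3 lines, at 0.14, 0.14 and 0.17 (limma, adjusted p = 0.036, 0.049 and 0.031). With set number as a block it passed in 4T1 and 67NR (limma, adjusted p = 0.017 and 0.014). Rigid against compliant in 4T1 was -0.03 ± 0.05 (limma, adjusted p = 0.85).

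The direct comparison of the miR-146b and miR-146b* signals was made in 4T1 after the values were seen. The within-array difference miR-146b minus miR-146b* ran from -0.60 to 0.34 with TGF-beta, against -1.22 to -0.61 with the inhibitor. Its change was 0.87, with an exact two-sided permutation p of 0.029, the smallest possible with 4 arrays against 4, and it was positive in 4 of 4 pairs (exact p = 0.125 within pairs, the smallest possible). For rigid against compliant the change was -0.63 (exact permutation p = 0.17), where the arrays overlapped, and it was positive in 0 of 4 pairs (exact p = 0.125 within pairs). Between lines the miR-146b* signal was lower than in 67NR, by -0.42 ± 0.04 in 4T1 and -0.36 ± 0.04 in 4TO7 (limma, adjusted p = 1.0e-08 and 1.2e-07). Of all tested probes, 89.6% and 86.8% passed in these comparisons, with medians of -0.22 and -0.15. By size of difference miR-146b* was only at ranks 172 and 132 of 365. MiR-146b itself was detected on 0 of 8 67NR arrays. Whether the miR-146b* probe reports the arm it is named for was not tested.

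The probes whose 12 group means were most like those of the members were ranked by Pearson's r over the 12 groups, among 361 other probes. The groups share arrays and normalization, so the r values are descriptions. MiR-146a and miR-146b were each other's closest match, at r = 0.994. For miR-146a the next were let-7i (0.944), miR-132 (0.920), miR-500 and miR-191 (0.915 each). For miR-146b they were let-7i (0.929), miR-500 (0.921), miR-191 (0.909) and miR-132 (0.906). MiR-146b* had r = -0.39 with miR-146a and -0.41 with miR-146b. With TGF-beta in 4T1, let-7i rose by 0.76 ± 0.06 and miR-132 by 0.74 ± 0.05, while miR-500 (0.11) and miR-191 (0.10) did not pass (limma, adjusted p = 0.060 and 0.18). In the rigid microenvironment none of the 4 passed in 4T1, at -0.16 for let-7i, 0.05 for miR-132, -0.13 for miR-500 and -0.06 for miR-191.

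**Figure D5:**
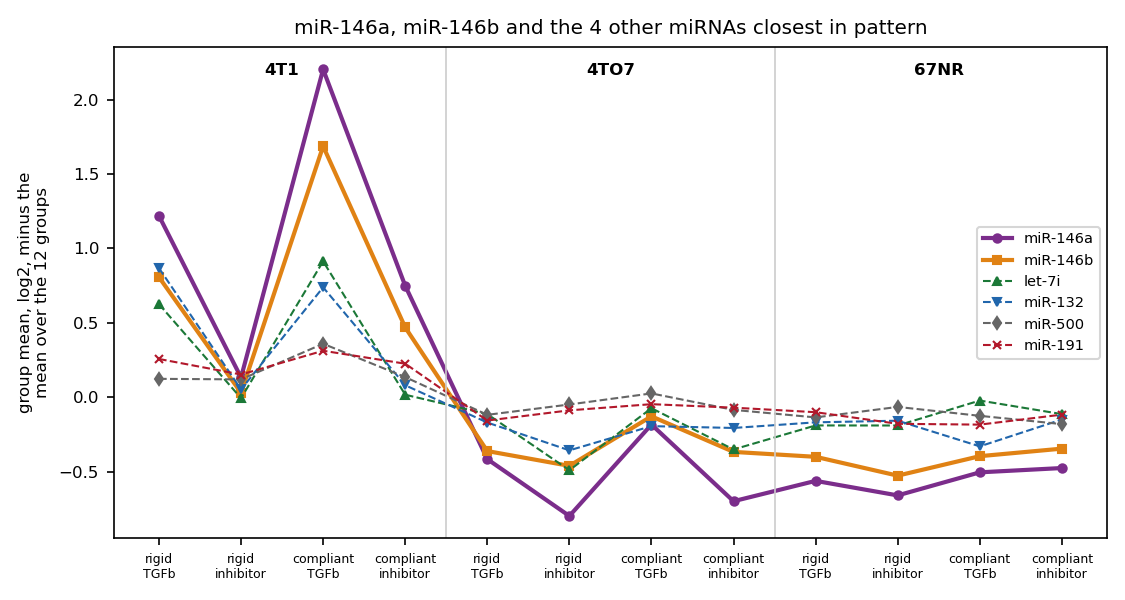
Normalized log2 group means, each minus its mean over the 12 groups, of miR-146a, miR-146b and the 4 other probes with the most similar pattern. Let-7i and miR-132 step up with TGF-beta in 4T1, by 0.76 and 0.74, and their rigid minus compliant differences there are -0.16 and 0.05.

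Other miRNAs linked to NF-kappa-B, Toll-like receptor and cytokine signalling moved in both directions. Of 16 listed and 14 tested, 5 rose and 6 fell with TGF-beta in 4T1, with a list median of -0.06 against 0.02 over all tested probes, of which 12.6% rose and 19.2% fell. The risers were let-7i (0.76), miR-132 (0.74), miR-21 (0.57), miR-199a-5p (0.20) and miR-155 (0.18), the last a miRNA induced with miR-146a in activated immune cells. MiR-222 (-1.11) and miR-221 (-1.09), which target the cell cycle inhibitor p27, fell most, followed by miR-125b-5p (-0.39), miR-125a-5p (-0.29), miR-9 (-0.24) and let-7e (-0.23). In 4TO7, 3 rose, miR-155 (1.15), miR-21 (0.60) and let-7i (0.33), and 4 fell, with a median of -0.01, where 9.59% of all probes rose and 11.8% fell. These falls were miR-222 (-1.17), miR-221 (-1.16), miR-125b-5p (-0.29) and let-7e (-0.17). MiR-155 was detected on 4 arrays of 4TO7 with TGF-beta and on 0 with the inhibitor, so its 1.15 is a difference from an undetected signal. In 67NR, miR-9 rose (0.17) and 5 fell, miR-221 (-0.97), miR-222 (-0.94), miR-125b-5p (-0.72), let-7e (-0.29) and miR-125a-5p (-0.28), with a median of -0.09 against 0.01 over all probes, of which 3.29% rose and 7.67% fell.

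Among miRNAs reported as responsive to TGF-beta, 7 of 19 tested rose and 1 fell in 4T1, 5 rose and 0 fell in 4TO7, and 3 rose and 1 fell in 67NR. Over all tested probes, 12.6% rose and 19.2% fell in 4T1, 9.59% rose and 11.8% fell in 4TO7, and 3.29% rose and 7.67% fell in 67NR. The list median was 0.09 in 4T1, 0.04 in 4TO7 and 0.03 in 67NR, beside 0.02, -0.00011 and 0.01 over all tested probes of these lines. MiR-181a and miR-181b rose in all 3, by 0.95 and 0.97 in 4T1, 0.90 and 0.98 in 4TO7, and 0.79 and 0.80 in 67NR. MiR-181d rose in all 3 too, by 0.42 in 4T1, 0.44 in 4TO7 and 0.37 in 67NR. MiR-21 and miR-155, also in the list above, rose in 4T1 and 4TO7, and miR-199a-5p and miR-200c (0.22), an epithelial miRNA, rose in 4T1. The falls were miR-29c in 4T1 (-0.33) and miR-181c in 67NR (-0.17). The summed intensity of the haematopoietic list, undetected probes included, was 1544 to 2090 with TGF-beta in 4T1, against 1384 to 1756 with the inhibitor, and these ranges overlapped. MiR-451 itself differed by 0.16 (limma, adjusted p = 0.24).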

How the data were processed

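Total RNA was hybridised to 2-dye miRNA arrays, 24 arrays of 12 groups. Per the file headers, the deposited intensity is a relative intensity on the linear scale, DY649 sample over DY547 reference, after background subtraction and a labelling correction by the authors, with no scaling across arrays. Beside it, the deposited files hold its error, used here as a percent, a detection p-value for signal above background, and a fail code. A value table deposited by the authors gives log2 intensity of 338 probes, which include miR-146b but not miR-146a, and equals log2 of the deposited intensity plus 1 constant per array. The rule behind the constants, the scanner and the software are not given in the sources used here.

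Here, log2 intensities of the 558 mouse probes were quantile normalized (limma 3.58.1, R 4.3.3). Probes were kept if both arrays of any group detected them, with the fail code set on fewer than 12 arrays, which left 365. A model of 12 group means was fitted (lmFit, 12 residual df, residual SD with a median of 0.076), followed by eBayes with trend. The two-sided p-values got a Benjamini-Hochberg adjustment over the 365 probes of each comparison, with 0.05 as the threshold for passing. The number of arrays limits the precision. Both members, miR-146b*, passing members of the lists, and the 5 probes most like each member are named. The members and lists were chosen with earlier results of these data known. In 4T1, deviations of same-numbered sets correlated at r = 0.23 to 0.49 in all 6 pairs of groups, so set numbers were taken as pairing there. In 4TO7 3 and in 67NR 2 of 6 pairs exceeded 0.1. Alternatives were 2 median scalings, the authors' table, no detection filter, a detection p under 0.01, slide as a fixed or random block, set number as a block, no trend, and leaving out each array. Spike-in probes were left out.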

Additional observations from a re-analysis of the deposited data

Results flagged for a closer look

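Effects of the same contrast that differed between lines were singled out by the test of the difference itself. The TGF-beta effect in 4T1 minus that in 4TO7 was 0.82 for miR-146a and 0.83 for miR-146b (limma, adjusted p = 2.4e-06 and 5.5e-07). The rigid effect in 4T1 minus that in 4TO7 was -0.63 for miR-146a and -0.50 for miR-146b (limma, adjusted p = 9.2e-05 and 2.5e-04). The 4TO7 values lie near the detection limit. MiR-146a was undetected there with the inhibitor and in rigid cultures, so 0.82 and -0.63 are differences of signals. A cause was not tested.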

How the results depend on the processing

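Set number as a replicate block is balanced over the groups, so it cannot move a difference, only its p-value. The TGF-beta rises in 4T1 thus stayed at 1.27 for miR-146a and 0.998 for miR-146b, and in the fits the block changed no call of either. For the within-array difference in 4T1, regrouping within the block, which cannot move the change of 0.27 either, gave an exact p of 0.125, the smallest possible. Scaling by the median of all mouse probes turned the 4TO7 minus 67NR difference of miR-146a to -0.025 and took that of miR-146b to 0.021, which no longer passed. It brought the difference of TGF-beta effects in 4T1, rigid minus compliant, past the threshold, at -0.43 and -0.48. Scaling by probes detected on all arrays did so for rigid against compliant in 4TO7, at -0.19 and -0.18. The causes were not tested. With each array left out in turn, the 4TO7 minus 67NR difference ran from -4.2e-05 to 0.053 for miR-146a, negative only without 67NR compliant inhibitor set 2, and from 0.060 to 0.12 for miR-146b. For miR-146b the rise with TGF-beta in 4TO7 ran from 0.11 to 0.23, and that in compliant 4TO7 from 0.13 to 0.35. Rigid against compliant in 4TO7 ran from -0.22 to -0.11 for each member, and the difference of effects in 4T1 from -0.49 to -0.39 for miR-146b. The change of the within-array difference in 4T1 ran from 0.23 to 0.31. For miR-146b*, rigid against compliant in 4T1 ran from -0.071 to 0.021, positive without rigid TGF-beta set 2 or compliant inhibitor set 1, and TGF-beta in 4T1 from 0.080 to 0.17. TGF-beta passed for it in 4T1 with scaling on probes detected on all arrays (0.144) and with the set block, and in the authors' table in 4T1 (0.140) and 4TO7 (0.143). Of the members' values under all alternatives, 1197 kept direction and side of the threshold, 17 no longer passed, 8 newly passed and 2 reversed. These include leaving out arrays that take no part in a comparison, which cannot move its difference and acts only on its p-value. The 1197 are thus no measure of stability. Counts of probes called moved by over 1.5 times in 36 cases. With slide as a fixed block, TGF-beta in 4T1 called 50 probes in place of 116, in compliant 4T1 34 in place of 65, in rigid 4T1 38 in place of 67, and its effect in 4T1 minus that in 4TO7 24 in place of 41. Rigid against compliant with that block called 12 in place of 27 in 4T1, and 8 in place of 16 with TGF-beta (9 with no detection filter). With the inhibitor it called 8 by the scaling on probes detected on all arrays and 9 in the authors' table, in place of 14. In 4TO7 it called 21 by that scaling and 18 with the set block, in place of 10. TGF-beta in 67NR called 61 in the authors' table and 70 with the set block, in place of 40. The rigid effect in 4T1 minus that in 4TO7 called 3 in the authors' table, in place of 6. Low signal limits the statements on miR-146a and miR-146b in 4TO7 and 67NR. In rigid 4T1 with the inhibitor miR-146b was detected but near that range, at 6.40 and 6.42 beside up to 6.08 in 67NR.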
